A study of Mus musculus with 6 samples.

Results

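Nodal, Lefty1, Lefty2, Bmp4, Id1, Id3, Fgf4, Fgf5, Spry4 and Dusp6 are ligands, inhibitors and targets of the Nodal, BMP and FGF pathways, and their H3K4me3 and ASH2L peaks were examined in mouse embryonic stem (ES) cells. The genes were chosen by name and make up 10 of the 21853 protein-coding genes of the GENCODE vM21 annotation. For each gene, all peaks that overlapped the gene body or the 5 kb upstream of it by at least 1 bp were collected. Fgf5, whose RNA is known to be low in ES cells and to rise in the epiblast, served as the gene against which the other genes were read. Its state is often called poised, but neither RNA nor H3K27me3 was among the data analysed here.

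The data are CUT&RUN maps of E14 cells, a mouse ES cell line, and comprise 6 samples in 3 groups of 2 duplicates. In CUT&RUN, permeabilized cells are incubated with an antibody, a nuclease tethered to it cuts the DNA nearby, and the released fragments are sequenced. HA-ASH2L E14 cells carry a doxycycline-inducible HA-tagged ASH2L, integrated by piggyBac transposition, and were expanded from picked colonies. They were profiled with anti-HA (1000000 cells) and with anti-H3K4me3 (100000 cells), as the labels give it. The methods of the study state the larger number for every experiment, so the cell number behind the H3K4me3 list is not settled. Parental E14 cells, without the tagged protein, were profiled with anti-HA (1000000 cells), and these samples were not analysed here. All groups received doxycycline for 48 h. The duplicates were merged before peak calling, so each of the 2 peak lists is a single measurement, and no value has a spread between samples or a test between conditions. Intervals are exact Poisson 95% intervals of the tag counts and cover counting error only.

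Nodal is a TGF-β family ligand that signals through SMAD2 and SMAD3 with FOXH1, and it induces its own extracellular inhibitors, the Lefty proteins. BMP4 signals through SMAD1 and SMAD5 and turns on the Id genes, whose products block bHLH factors that promote differentiation. FGF4 is the main autocrine FGF of ES cells. It acts through the ERK cascade, which induces the feedback inhibitors SPRY4 and DUSP6. H3K4me3 marks the start sites of most active genes and of many silent genes with CpG-rich promoters. ASH2L is a shared subunit of the MLL/SET1 complexes that methylate H3K4.

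The promoters of the genes differed in CpG content. The promoters of Nodal and Fgf4 are shown because no H3K4me3 peak was called over their start sites, and those of Fgf5 and Dusp6 because a peak covered theirs. Each sequence is the 250 bases before a start site, from RefSeq on GRCm38.p6 (mm10), 5′ to 3′ on the gene strand, with CG in capitals. They lie at chr10:61417722-61417971 (Nodal), chr7:144861136-144861385 (Fgf4), chr5:98253934-98254183 (Fgf5) and chr10:99262981-99263230 (Dusp6), all on the plus strand.
Nodal: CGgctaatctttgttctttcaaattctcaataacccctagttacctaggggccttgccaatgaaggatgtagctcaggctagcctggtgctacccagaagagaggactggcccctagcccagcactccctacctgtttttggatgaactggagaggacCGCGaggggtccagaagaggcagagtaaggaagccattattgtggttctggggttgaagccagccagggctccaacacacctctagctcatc
Fgf4: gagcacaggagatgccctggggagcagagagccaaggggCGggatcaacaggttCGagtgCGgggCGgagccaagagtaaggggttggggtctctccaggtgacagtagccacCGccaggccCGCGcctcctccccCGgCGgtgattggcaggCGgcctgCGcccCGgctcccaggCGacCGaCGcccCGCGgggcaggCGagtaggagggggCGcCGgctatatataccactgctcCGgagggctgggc
Fgf5: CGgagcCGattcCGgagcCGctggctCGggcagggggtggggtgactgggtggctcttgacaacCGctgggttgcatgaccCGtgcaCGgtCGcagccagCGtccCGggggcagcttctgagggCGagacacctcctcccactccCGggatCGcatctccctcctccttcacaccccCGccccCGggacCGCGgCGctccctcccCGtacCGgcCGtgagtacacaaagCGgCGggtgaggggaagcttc
Dusp6: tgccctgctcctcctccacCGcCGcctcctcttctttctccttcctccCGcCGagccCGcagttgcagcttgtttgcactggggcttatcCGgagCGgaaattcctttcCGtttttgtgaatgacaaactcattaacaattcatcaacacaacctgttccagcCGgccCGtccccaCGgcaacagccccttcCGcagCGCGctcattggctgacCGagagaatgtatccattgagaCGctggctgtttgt
The Nodal promoter held 3 CpGs, at percentile 37.8 of 32851 RefSeq promoters of this length, whose median was 6. Fgf5 had 24 CpGs (percentile 89.3), Fgf4 21 (85.2), Id3 18 (80.3), Dusp6 16 (76.5) and Bmp4 11 (66.5). CpG content did not separate the genes with a called start-site peak from those without, since Fgf4 lay above Id3, Dusp6 and Bmp4. The RefSeq start site of Id3 lies downstream of the GENCODE one, so its window falls inside the annotated gene and under the H3K4me3 peak. RefSeq promoters were matched for these 6 of the 10 genes, and not for Lefty1, Lefty2, Id1 and Spry4.

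Motifs were searched on both strands of these promoters by their letters, and none of the motifs contains another. The SMAD motif CAGAC occurred at 2 places in the Id3 promoter and in none of the other 5, while 42.2% of all promoters held it. GGCGCC, a GC-rich motif of SMAD1 and SMAD5 that reads the same on both strands, occurred at 1 place in the Fgf4 promoter and in 9.59% of all promoters. The FOXH1 motifs AATCCACA (0.718% of promoters) and AATACACA (0.895%) and the ETS motif CCGGAAGT (2.88%) were in none of the 6. A match is a description of these letters in this window and not a bound site.

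An H3K4me3 peak lay in the gene body or 5 kb upstream of 8 of the 10 genes, with 1 peak each, whereas 76.2% of all protein-coding genes had such a peak. A peak covered a start site of 6 of them, Lefty1, Bmp4, Id1, Id3, Fgf5 and Dusp6, and of 66.2% of all protein-coding genes. Both shares were near those of all genes. The start-site peak was 5000 bp or wider for 5 of the 10 genes, all of the 6 but Fgf5, and for 8.20% of all protein-coding genes. The map of called peaks shows these wide domains beside the shorter peak of Fgf5 and the start sites of Nodal, Lefty2, Fgf4 and Spry4 without a call. None of the 6 start-site peaks covered the start of another protein-coding gene.

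**Figure D1:**
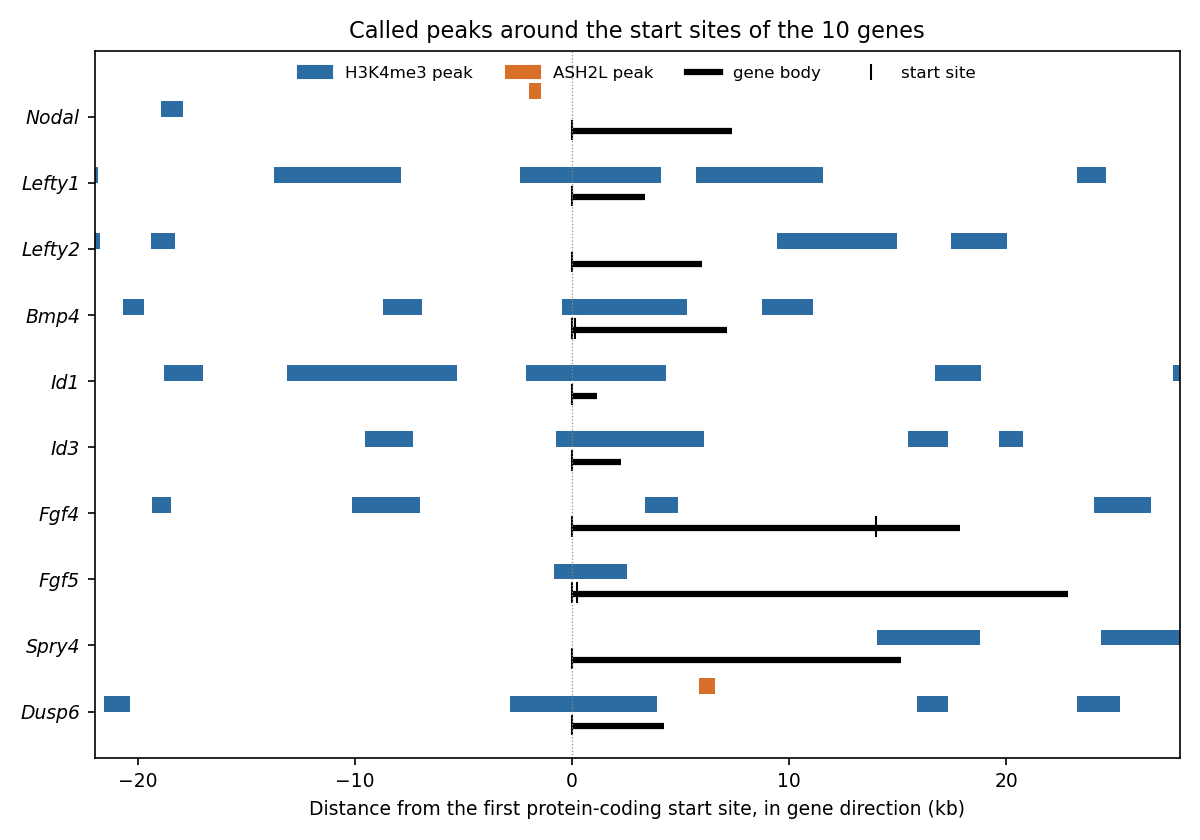
Called peaks around the 10 genes, drawn by distance in kb from the most upstream protein-coding start site in the direction of each gene, with H3K4me3 peaks in blue, ASH2L peaks in orange, gene bodies as black bars and start sites as ticks. Wide H3K4me3 peaks cover Lefty1, Id1 and Id3 entirely and Dusp6 (91.9%) and Bmp4 (74.3%) in large part, the Fgf5 peak reaches 2511 bp into the gene, and the single ASH2L peak within 5 kb upstream of a gene is that of Nodal.

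Of the Nodal pathway genes, Lefty1 had a wide H3K4me3 peak, and Nodal and Lefty2 had none in their windows. The Lefty1 peak (chr1:180932619-180939106) was 6488 bp wide with 1228 tags, or 189 tags per kb of peak (179 to 200). It covered the entire gene (chr1:180935022-180938400, plus strand) with its 4 exons, reached 2403 bp upstream of the start site and ended 706 bp beyond the gene. Its width was at percentile 96.0 and its tag density at percentile 85.5 of the 14459 start-site peaks of protein-coding genes, whose medians were 2959 bp and 155 tags per kb. The Lefty1 peak was also poor in CpG, with 1.79 CpGs per 100 bp (percentile 5.8) against a median of 3.38 over all start-site peaks. Lefty1 thus had a wide and dense domain with few CpGs.

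Lefty2 lies next to Lefty1 on the same strand (chr1:180893108-180899103) and encodes a closely related inhibitor, but its nearest H3K4me3 peak began 3455 bp beyond its end and 9450 bp from its start site. That peak (chr1:180902558-180908064) was 5507 bp wide with 1081 tags, or 196 tags per kb, a density close to that of the Lefty1 peak. It lies between the Lefty genes and covers no part of either. The nearest peak upstream of Lefty2 ended 18298 bp before the gene and held 114 tags. Lefty1 in turn had a peak of 5850 bp and 958 tags that began 2314 bp beyond its end. A start-site peak was thus called for Lefty1 and not for Lefty2, and both genes were followed by a wide peak.

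Nodal (chr10:61417972-61425338, plus strand) had no H3K4me3 peak over the gene or its 5 kb upstream. The nearest H3K4me3 peak ended 17921 bp upstream of the start site and was small, with 1014 bp and 70 tags. A larger one of 6517 bp and 916 tags (141 tags per kb) began 21901 bp beyond the gene. The list gives tags within called peaks only, so the level of H3K4me3 at the Nodal and Lefty2 start sites is unknown, and the absence of a call is not the absence of the mark. Pou5f1, Sox2, Nanog and Dppa5a, which ES cells are known to express, had no called peak in their windows either, and the reason was not tested.

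Nodal was the only gene of the 10 with an ASH2L peak in its window, against 10.4% of all protein-coding genes. The peak (chr10:61415978-61416550) was 573 bp wide and held 29 tags (19.4 to 41.6), with 5.27-fold enrichment relative to the modelled background and a p-value score of 54.71. The score is −log10 of the p-value multiplied by 10, and the cutoff was 50. Within the ASH2L list it was at percentile 88.7 for tag density (50.6 tags per kb against a median of 44.1), 47.0 for fold enrichment and 26.5 for score. With a score of at least 100, or with the list median of the fold enrichment as a threshold, none of the 10 genes had an ASH2L peak, while 1.08% and 5.12% of all protein-coding genes did, so that a count of 0 among 10 genes is near the background. Its summit lay 1739 bp upstream of the Nodal start site, outside the gene, and no H3K4me3 peak overlapped it.

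The 300 bases around the summit of this peak are shown because it is the single ASH2L peak of the 10 genes (chr10:61416084-61416383, GRCm38.p6 genome from RefSeq, plus strand, 5′ to 3′, CG in capitals).
Nodal ASH2L summit: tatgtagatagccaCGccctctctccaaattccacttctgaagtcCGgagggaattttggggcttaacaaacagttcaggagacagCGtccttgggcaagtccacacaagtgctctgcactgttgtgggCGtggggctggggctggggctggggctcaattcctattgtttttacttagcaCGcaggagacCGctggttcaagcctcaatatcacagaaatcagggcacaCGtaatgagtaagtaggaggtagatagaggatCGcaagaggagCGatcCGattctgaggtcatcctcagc
The window held 10 CpGs, whereas the windows of the same length around 2463 ASH2L summits had a median of 24, which put it at percentile 32.8. Repeats made up 16.0% of its bases. It held none of the SMAD, FOXH1 and ETS motifs named above. Of all ASH2L windows, 46.3% held CAGAC, 26.9% GGCGCC, 0.568% AATCCACA, 1.06% AATACACA and 2.92% CCGGAAGT.

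For the other 9 genes, ASH2L peaks lay outside the windows. The closest was that of Dusp6, where a peak of 724 bp with 32 tags, a fold enrichment of 6.3 and a score of 75.07 (chr10:99269074-99269797) began 1585 bp beyond the end of the gene and 5843 bp from its start site. The peak near Dusp6 thus had the higher score of the pair, although the window rule left it out. For Id3, Id1, Lefty2, Lefty1 and Fgf4 the nearest ASH2L peak was 54027, 94833, 124211, 166125 and 181771 bp from the start site. The distance was 631612 bp for Spry4, 1255886 bp for Fgf5 and 3028290 bp for Bmp4. The ASH2L list was small, with 2464 peaks against 59927 for H3K4me3, and its peaks held 0.398% of the ASH2L tags. The tags outside peaks are not listed, so ASH2L at the genes without a call cannot be said to be absent.

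Of the BMP pathway genes, the ligand gene and both targets had wide start-site peaks, but that of Bmp4 was sparse. The Bmp4 peak (chr14:46385357-46391126) was 5770 bp wide with 524 tags, or 90.8 tags per kb (83.2 to 98.9), at percentile 92.8 for width and 7.74 for density. It began 457 bp upstream of the start site and reached 5312 bp into the gene (chr14:46383520-46390669, minus strand), over 74.3% of its length, and its summit lay 3192 bp downstream of the start site. This interval also overlaps Gm15222, an annotated antisense gene, and CUT&RUN tags cannot be assigned to a strand. The CpG density of the Bmp4 peak, 4.68 per 100 bp, was at percentile 81.4, so this peak was CpG-rich with a low tag density, the opposite of Lefty1.

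Id1 and Id3 encode inhibitors of bHLH factors and are direct targets of BMP signalling. The Id1 peak (chr2:152734131-152740591) was 6461 bp wide with 1060 tags, or 164 tags per kb (154 to 174). The Id3 peak (chr4:136142745-136149587) was 6843 bp wide with 1070 tags, or 156 tags per kb (147 to 166). These peaks had nearly the same number of tags, and a difference in density was not detectable beyond counting error (ratio 1.05, 0.963 to 1.14). Both covered the whole gene, which is short (1160 bp for Id1 and 2259 bp for Id3), and ran 3181 and 3832 bp beyond its end. Both summits lay close to the start site, 20 bp downstream in Id1 and 218 bp in Id3. The Id1 peak reached 2120 bp upstream of the start site and the Id3 peak 752 bp, so the Id3 domain lay mostly downstream.

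Of the FGF pathway genes, Dusp6 had the densest peak of the 10 genes, Fgf5 an intermediate one, and Fgf4 and Spry4 had peaks that did not touch a start site. Dusp6 encodes a phosphatase that inactivates ERK. Its peak (chr10:99260370-99267145) was 6776 bp wide with 1490 tags, or 220 tags per kb (209 to 231). Among all start-site peaks it was at percentile 97.0 for width, 98.5 for density and 99.8 for the number of tags. For fold enrichment and p-value score it was at percentile 0.0692 and 9.36. It reached 2861 bp upstream of the start site and covered 91.9% of the gene (chr10:99263231-99267489, plus strand), ending 344 bp short of its end, with the summit 2274 bp downstream of the start site. Few of the 14459 genes thus had as many H3K4me3 tags over a start site as Dusp6.

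Fgf5 encodes a ligand that marks the epiblast after implantation. Its peak (chr5:98253331-98256695) was 3365 bp wide with 415 tags, or 123 tags per kb (112 to 136), with the summit 152 bp downstream of the start site. It spanned 853 bp upstream and 2511 bp downstream of the start site, over 11% of the gene (chr5:98254184-98277030, plus strand). Among all start-site peaks it was at percentile 62.3 for width and 21.3 for density, so it was of ordinary width and below the lower quartile of density, 129 tags per kb. The peak was isolated, with the next H3K4me3 peak upstream ending 67172 bp before the gene and the next downstream beginning 15719 bp beyond the gene. In the gene and 50 kb on either side there were 4 H3K4me3 peaks, against 5 for Spry4 and 10 for Lefty1 and for Fgf4. The start-site peaks most like that of Fgf5 were sought by log2 distance in width, tag density and fold enrichment over 11827 genes. Genes that shared their peak with another protein-coding gene were left out. The closest were Naa30 (3336 bp, 412 tags), Fam189a2 (3376 bp, 419 tags) and Praf2 (3307 bp, 410 tags).

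Fgf4 has 2 annotated protein-coding start sites, of which the downstream one is that of the RefSeq promoter shown. The gene's only H3K4me3 peak (chr7:144850721-144852269) was intronic, touched no exon and lay 3354 bp downstream of the upstream start site and 9117 bp upstream of the other. It was 1549 bp wide with 164 tags, or 106 tags per kb (90.3 to 123), and had 0.71 CpGs per 100 bp. On the other side of the downstream start site, the next peak began 10024 bp away. The adjacent ligand gene Fgf3 had a start-site peak of 3145 bp with 523 tags, which ended 6997 bp before the Fgf4 gene. Thus neither start site of Fgf4, a gene that ES cells are known to express, had a called peak.

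Spry4 encodes a feedback inhibitor of receptor tyrosine kinase signalling. Its H3K4me3 peak (chr18:38582597-38587371) was 4775 bp wide with 427 tags, or 89.4 tags per kb (81.1 to 98.3). It covered the last 1125 bp of the gene (chr18:38586247-38601415, minus strand) and 3650 bp beyond its end, 14044 bp from the start site. This interval also overlaps AC151580.1, an annotated processed pseudogene, so the peak cannot be assigned to Spry4 alone. Of these feedback inhibitors, Dusp6 thus had a domain over its start site and Spry4 did not have a called one.

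The genes were then ordered by tag density, the tag count per kb of peak. In the whole list the median density rose with width, from 48.5 (up to 1000 bp) to 145 (3001 to 4000 bp). The order was Dusp6, Lefty1, Id1, Id3, Fgf5, Fgf4, Bmp4 and Spry4. The steps from Dusp6 to Lefty1 (ratio 1.16, 1.08 to 1.25), from Lefty1 to Id1 (1.15, 1.06 to 1.25) and from Id3 to Fgf5 (1.27, 1.13 to 1.42) exceeded counting error. Those from Id1 to Id3, from Fgf5 to Fgf4 (1.16, 0.97 to 1.4), from Fgf4 to Bmp4 (1.17, 0.972 to 1.39) and from Bmp4 to Spry4 (1.02, 0.892 to 1.16) did not. The plot of tag densities shows these steps against the range of all start-site peaks. With merged duplicates, it is unknown whether a step exceeds the spread between cultures.

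**Figure D2:**
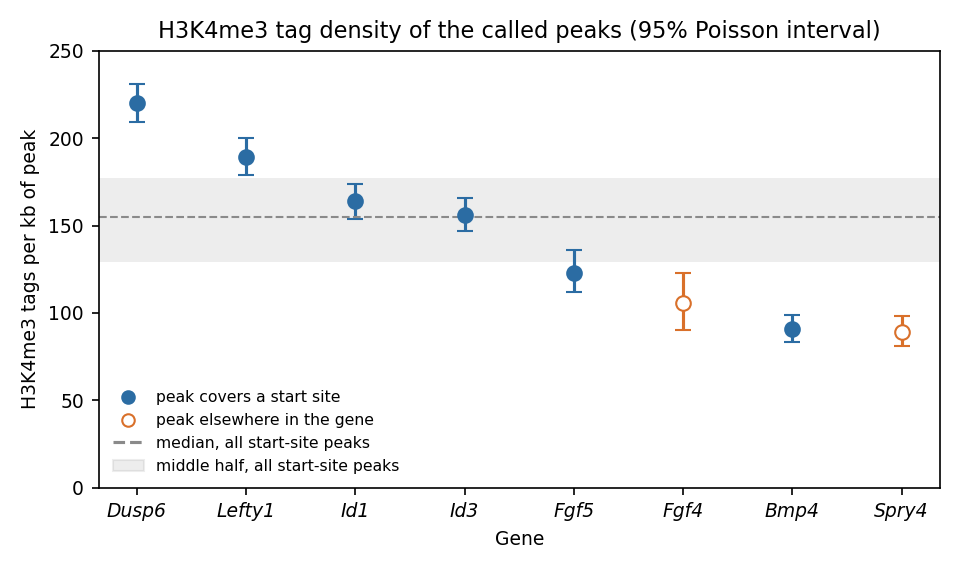
H3K4me3 tags per kb of peak for the 8 genes with a called peak, with exact Poisson 95% intervals; filled points are peaks over a start site, open points are peaks elsewhere in the gene, the dashed line is the median of all start-site peaks (155) and the grey band spans their quartiles (129 to 177). Dusp6 and Lefty1 lie above the band, Id1 and Id3 inside it, and Fgf5, Fgf4, Bmp4 and Spry4 below it.

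Against Fgf5, the peaks of the other 5 genes with a start-site peak were 1.71 (Bmp4) to 2.03 (Id3) times as wide. Tag density was higher than that of Fgf5 in 4 of the 5, by 1.78-fold in Dusp6 (1.60 to 1.99), 1.53-fold in Lefty1 (1.37 to 1.72), 1.33-fold in Id1 (1.19 to 1.49) and 1.27-fold in Id3 (1.13 to 1.42). In Bmp4 it was lower, at 0.736 of that of Fgf5 (0.646 to 0.84). In total tags the ratio ran from 1.26 for Bmp4 to 3.59 for Dusp6. The median of the 5 genes was 1.93 times the width and 1.33 times the density of Fgf5. With Bmp4 and Lefty1 alone, the density ratio was 1.14, since these lie on opposite sides of Fgf5.

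The fold enrichment and the p-value score gave another order. Fold enrichment was 5.74 for Fgf5, 5.05 for Bmp4, 3.67 for Id3, 3.26 for Lefty1, 3.04 for Id1 and 2.55 for Dusp6, so that Dusp6, highest in tags and density, came last. The score was 567.9 for Fgf5 and lower in the other 5 genes, from 96.58 for Id3 to 353.25 for Lefty1. All 8 peaks of the 10 genes had a fold enrichment below the list median of 6.46, and with that median as a threshold none of the 10 genes had an H3K4me3 peak over its start site, against 33.8% of all protein-coding genes. In the whole list, the median fold enrichment was 6.46 for peaks of up to 1000 bp, 7.22 for peaks of 1001 to 2000 bp, 5.58 for peaks of 3001 to 4000 bp and 3.73 for peaks of 6001 to 8609 bp, whereas the median density was 48.5, 73.9, 145 and 149 tags per kb. The background of the fold enrichment was modelled from the same library around each peak, without a control library. Whether this accounts for the low fold enrichments of the wide peaks was not tested.

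**Figure D3:**
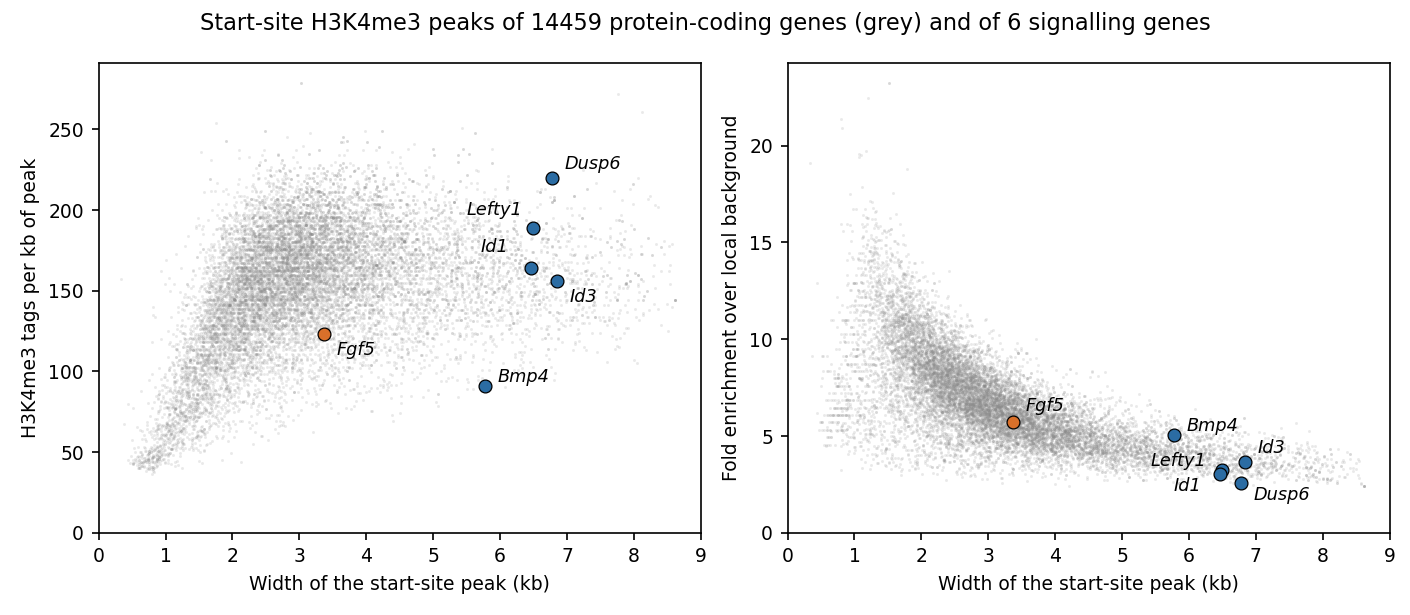
Tag density (left, tags per kb of peak) and fold enrichment over the local background (right) against peak width in kb for the start-site H3K4me3 peaks of 14459 protein-coding genes (grey points), with Fgf5 in orange and Lefty1, Bmp4, Id1, Id3 and Dusp6 in blue. The blue genes lie among the widest peaks, where the fold enrichments of all genes are low, and Bmp4 lies below Fgf5 in density.

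Within their own width class, the genes also differed. The peaks of 6001 to 8609 bp had a median of 149 tags per kb, and Dusp6 (220) and Lefty1 (189) were above it by more than their counting intervals, as was Id1 (164), while the interval of Id3 (147 to 166) included it. Bmp4 (90.8) was below the median of its class of 5001 to 6000 bp, 150 tags per kb. Fgf5 (123) was also below that of its class of 3001 to 4000 bp, 145 tags per kb. Of the peaks off the start sites, Spry4 (89.4) was below the 148 tags per kb of its class of 4001 to 5000 bp. Fgf4 (106) was above the 73.9 of its class of 1001 to 2000 bp, although it was among the less dense of the 8 peaks. In fold enrichment, Dusp6, Lefty1, Id1 and Id3 were all below the 3.73 of their class, Fgf4 (4.08) and Spry4 (3.72) were below the 7.22 and 4.76 of theirs, Bmp4 was above the 4.2 of its class, and Fgf5 (5.74), unlike in density, was slightly above the 5.58 of its class.

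The wider pathways were listed by role, and 114 of 115 listed genes, the 10 genes among them, were found in the annotation. An H3K4me3 peak covered a start site of 95 of the 114 (83.3%), against 66.2% of all protein-coding genes, and of 89 of 104 without the 10 genes. With the list median of the fold enrichment as a threshold it was 24 of the 114 (21.1%) against 33.8% of all protein-coding genes, so the share of the pathway genes turned from above to below that of all genes. Without that threshold it was 20 of 28 for the Nodal pathway (71.4%, near the share of all genes), 26 of 28 for the BMP pathway (92.9%) and 49 of 58 for the FGF pathway (84.5%). In the Nodal pathway, all 4 receptors (Acvr1b, Acvr1c, Acvr2a and Acvr2b) and all 4 transducers (Smad2, Smad3, Smad4 and Foxh1) had a start-site peak. So did the targets Gsc and Eomes, transcription factors of mesendoderm, each with a peak of 5000 bp or wider. Neither co-receptor (Tdgf1 and Cfc1) had one, and of the 8 inhibitors it was Lefty1, Fst and Ski, but not Lefty2, Cer1, Dand5, Smad7 and Skil. Lefty1 was thus among the minority of Nodal inhibitors with a called domain, and its density of 189 tags per kb was close to the 190 of Ski and above the 154 of Fst.

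**Figure D4:**
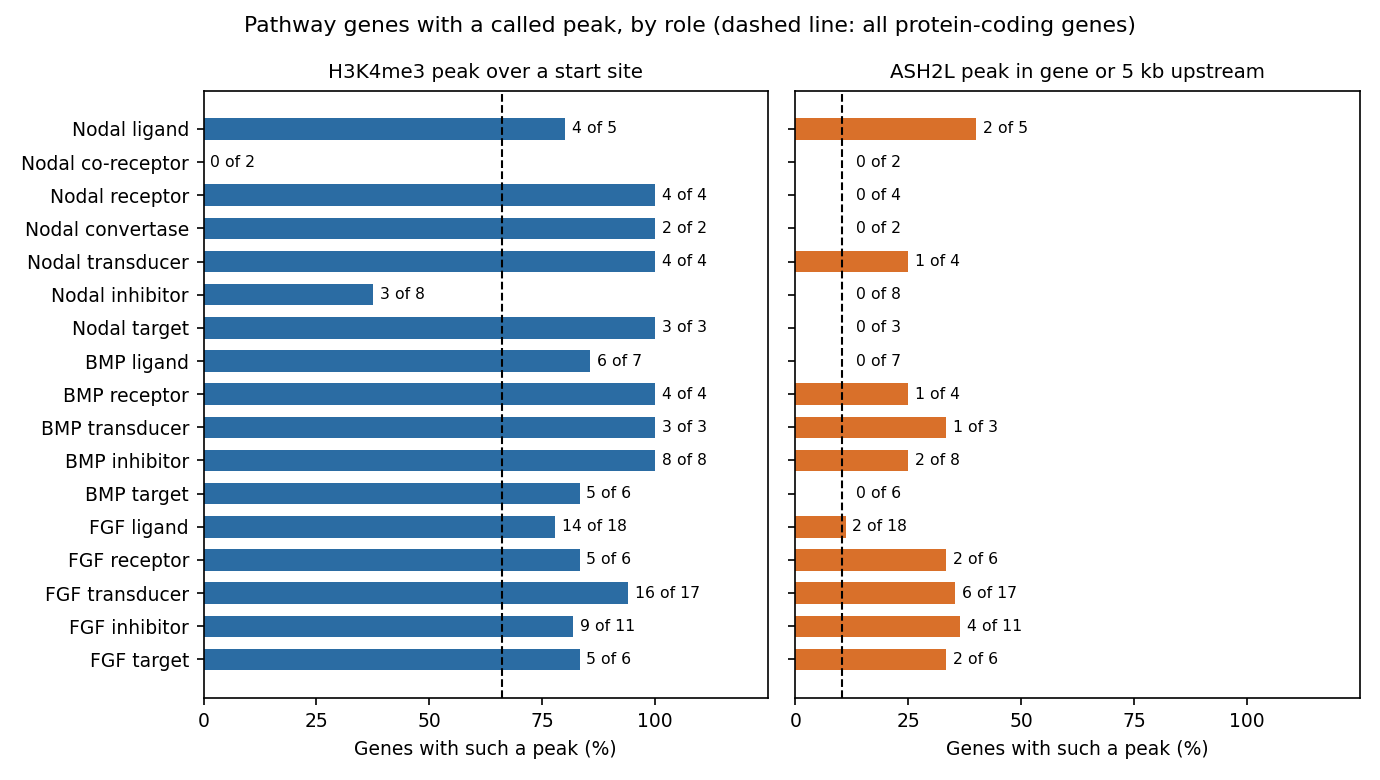
Share of the listed pathway genes with an H3K4me3 peak over a start site (left) and with an ASH2L peak in the gene body or 5 kb upstream (right), in percent by pathway and role, with the number of genes beside each bar. Dashed lines are the shares of all protein-coding genes (66.2% and 10.4%), and Nodal inhibitors (3 of 8) and co-receptors (0 of 2) fall below the left line.

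Among the ligands related to Nodal, Gdf3 and Inhbb had start-site peaks of about the width of that of Lefty1, with 6635 bp at 188 tags per kb and 6389 bp at 175. Gdf1 had 3921 bp at 135 and Inhba 1902 bp at 117 tags per kb. Of the 5 ligands of its list, Nodal was the one without a start-site peak. Of the BMP ligands, 6 of 7 had a start-site peak, and Bmp4 was both the widest and the least dense, as Bmp2, Bmp6, Bmp7, Bmp8a and Bmp8b ranged from 2014 to 4693 bp and from 142 to 179 tags per kb. Of the 6 BMP targets, Id1 and Id3 were the ones with a peak of 5000 bp or wider. Id4 had 3521 bp at 179 tags per kb, Msx1 2747 bp at 133 and Msx2 2322 bp at 115, and Id2 had none called. All 8 BMP inhibitors had a start-site peak, and the widest was that of Smad6, with 8208 bp.

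Of the 18 FGF ligands, 14 had a start-site peak, with densities from 82.4 to 166 tags per kb and a median of 126. Fgf5, with 123, was thus near the middle of its own family, and 8 ligands were denser and 3 wider. The densest were Fgf3, with 166 tags per kb, and Fgf15, with 162, and the widest was Fgf18, with 6402 bp. All 14 were less dense than Dusp6 and Lefty1. Of the 11 feedback inhibitors of the FGF pathway, 9 had a start-site peak, with a median width of 6158 bp, and 7 had one of 5000 bp or wider. Such a wide peak was found at 28 of the 114 pathway genes and at 8.20% of all protein-coding genes, of which 66.2% had a start-site peak of any width. Dusp6 was the densest of these, ahead of Spred1 (207 tags per kb), Dusp7 (195), Dusp4 (175) and Spred3 (173), and Il17rd the widest, with 7490 bp. Spry2 and Spry4 were the inhibitors without a call at the start site, while Spry1 had a peak of 5068 bp. Of the 6 FGF targets, Myc, Etv4, Egr1 and Etv1 had peaks of 5000 bp or wider, Fos one of 4930 bp, and Etv5 none over its start.

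An ASH2L peak lay in the windows of 23 of the 114 genes (20.2%), against 10.4% of all protein-coding genes. It was 3 of 28 genes in the Nodal pathway (10.7%) and 4 of 28 in the BMP pathway (14.3%), which are near the share of all genes, and 16 of 58 in the FGF pathway (27.6%). They included the transducers Foxh1, Smad1 and Map2k1 and the FGF inhibitors Spry2, Spred2, Dusp5 and Il17rd, but Nodal alone of the 10 genes. The annotated Fgfr2 gene spans 2960900 bp and took in 6 ASH2L peaks, the nearest 270300 bp from its start sites. Without Fgfr2 there were 22 genes with 22 ASH2L peaks, of which 19 overlapped an H3K4me3 peak and 19 had their summit within 1000 bp of a start site. The same shares over the whole ASH2L list are not given here, so whether these peaks differ from it cannot be said. The 3 ASH2L peaks that overlapped no H3K4me3 peak were at Nodal, Spry2 and Il17rd. Nodal and Spry2 had no H3K4me3 peak in their windows, whereas Il17rd had one over another start site. The Nodal summit was the farthest of the 3 from a start site, at 1739 bp against 654 bp for Spry2 and 184 bp for Il17rd. With a score of at least 100, 2 of the 114 genes (1.75%) had an ASH2L peak, against 1.08% of all protein-coding genes. They were Map2k1 (score 113.77) and Fgfr2 (100.62 and 109.64), so without Fgfr2 only Map2k1 remained.

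The cell type was checked through H3K4me3 at marker genes, a measure of chromatin and not of RNA. A start-site peak was found for 4 of 8 ES cell markers, Klf4 (209 tags per kb), Zfp42 (208), Tfcp2l1 (150) and Esrrb (126). It was also found for 4 of 4 primitive endoderm markers, 3 of 4 fibroblast markers and 4 of 4 trophoblast markers, so these lists do not by themselves identify the cells. After removal of redundant tags, 27328071 of 39669806 H3K4me3 tags and 25677963 of 26545897 ASH2L tags remained, and the H3K4me3 peaks held 45.7% of their tags. In a bulk map, fewer cells with a mark and less of it per cell cannot be told apart, and this holds for every density above. Without a control library or the parental samples, tags that any antibody would collect remain in the counts of both lists.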

How the data were processed

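CUT&RUN of E14 cells with anti-HA and anti-H3K4me3 was performed in duplicates. Reads were mapped to mm10 with Bowtie2, and duplicates were merged before peak calling. The file headers name MACS 1.4.3, a p-value cutoff of 1e-05, no control library and 1 tag kept per position. The deposited tag counts are whole numbers of tags in each peak of the merged libraries, without normalization. The deposited fold enrichment is a ratio to the background that MACS modelled from the same library, and the deposited score is −log10 p multiplied by 10. The methods state that only fragments below an upper size limit were retained. The tag sizes in the headers (142 bp for H3K4me3 and 151 bp for ASH2L) exceed this limit, so it is not settled which fragments the lists count. Tag numbers were compared only within a list.

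Peaks were intersected with the GENCODE vM21 gene bodies extended by 5000 bp upstream (minimum overlap 1 bp) and with the start sites of protein-coding transcripts. Where several peaks covered start sites of a gene, the one with most tags was taken. Tag density was tags divided by peak width in kb, with exact Poisson 95% intervals, and ratios had exact conditional intervals. No test between groups was made, since each list is a single measurement. The genes and pathway lists were chosen with earlier results of these data known. The genes named were the 10 genes, the 3 genes most like Fgf5, the marker genes, and pathway genes by their role, start-site peak or ASH2L peak. The promoters shown, and the pathway genes quoted as examples, were chosen after their values were seen, and some listed genes are not reported by name here. Alternatives were windows of 2000 and 10000 bp upstream, an overlap of at least 100 bp, peaks at or above the median fold enrichment (6.46 for H3K4me3, 5.37 for ASH2L) or with a score of at least 100, promoter windows from 1000 bp upstream to 100 bp downstream, other choices of peak or centre, subtraction of the tags outside peaks, and leaving genes out. Leaving out Fgfr2 was chosen after seeing the data. The procedures were tested on simulated data. Computations used matplotlib 3.10.9, pysam 0.24.0, numpy 2.4.6, scipy 1.17.1 and pandas 2.3.3 under Python 3.11.15.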

Additional observations from a re-analysis of the deposited data

How the results depend on the processing

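Of 40 alternative values for 10 results, 20 stayed near the reported value and 20 moved. Counts and ratios of this kind cannot be negative, so a change of sign was not possible. Peaks at or above the median fold enrichment left 0 of the 10 genes with an H3K4me3 peak instead of 8 (0 peaks instead of 8), 0 instead of 6 with a start-site peak, 24 instead of 95 pathway genes with a start-site peak (21.1%, below the 33.8% of all genes, whereas 83.3% lay above 66.2%), 0 instead of 1 gene with an ASH2L peak (0 peaks instead of 1) and 10 instead of 23 pathway genes with one (8.77% against 5.12% of all genes). A score of at least 100 left 5 genes with 5 H3K4me3 peaks, all over start sites, while 63.9% of all genes had such a start-site peak. Of the pathway genes, 91 had one (79.8%). The same score left 0 genes with an ASH2L peak (0 peaks) and 2 pathway genes with one, Map2k1 and Fgfr2 (1.75% against 1.08% of all genes). The window of 10000 bp upstream held 13 H3K4me3 peaks instead of 8, at the same number of genes. The median ratio to Fgf5 rests on 5 genes. For density it was 1.33 and became 1.14 without Spry4, Dusp6, Id1 and Id3. For width it was 1.93 and became 1.92 with the peak of most tags in the window, 1.92 with the mean and 1.82 without these genes. For fold enrichment it was 0.568 and became 0.639, 0.612 and 0.724. Width and fold enrichment have no counting interval, so any change counted as moved. No paired analysis was possible because duplicates were merged before peak calling, and for the same reason no duplicate could be left out. The ASH2L peaks had a median of 32 tags, and the effect of depth on the calls was not tested.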
